A study of Mus musculus with 3 samples.

Results

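Cadherins and protocadherins are calcium-dependent adhesion proteins of the cell surface, and their genes were compared between mouse cerebella lacking Smarca5 conditionally (conditional knockout, cKO) and wild-type cerebella. The set was defined by name alone: every gene whose current symbol is Cdh followed by a number or starts with Pcdh. The RefSeq gene table lists 93 such genes, and 91 of them were measured, by 164 probes, out of 28203 features tested in all. Cdh12 and Cdh19 were not analysed here. The array's Pcdh21 is now called Cdhr1 and was therefore not a member.

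Each of 3 two-colour arrays held RNA of a Smarca5 cKO cerebellum and of a wild-type cerebellum, both from C57Bl/6 mice at postnatal day 10. Smarca5 encodes Snf2h, an ATPase that slides nucleosomes along DNA. The cKO carried Cy5 on replicates 1 and 2, and Cy3 on replicate 3, the dye-flipped array. The labels name neither the Cre line that removed Smarca5 nor the cells it acts in, and do not say whether an array held 1 animal or a pool, so the spread between arrays may be technical. Every value below is a log2 ratio of cKO over wild type, so that a negative value means lower in the cKO, and errors are SDs over 3 arrays. The file does not state the base of its logarithm, and folds hold for base 2.

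Classical cadherins hold cells of the same kind together by binding their own type on the neighbouring cell, and are tied to actin inside the cell through catenins. Clustered protocadherins lie in 3 neighbouring gene arrays, Pcdha, Pcdhb and Pcdhg, from which a single neuron expresses a small mix that gives its surface an identity. Pcdha and Pcdhg transcripts end in constant exons shared by the genes of their cluster, whereas each Pcdhb gene stands alone in 1 exon. Delta-protocadherins are unclustered and are expressed in patterns that differ between brain regions and neuron types.

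The classes are set side by side as a description, without a test between them. Pcdhb genes were lower in the cKO almost throughout, delta-protocadherins were higher, Pcdha genes were slightly lower, Pcdhg genes lay near 0, and classical cadherins went both ways and held the lowest member of all, Cdh15. Over the 91 genes, 36 were below 0 on all 3 arrays, 39.6% against 21.5% of all features, and 20 were above 0 on all 3, 22.0% against 22.1%. An unadjusted p under 0.05 (limma's moderated statistic) with a lower value was held by 25 genes, 27.5% against 9.97% of all features, and with a higher value by 13 genes, 14.3% against 10.9%. No gene of the array passed an adjusted p of 0.05 over all features (0%, limma with Benjamini-Hochberg), where 5891 features had an unadjusted p under 0.05. Of the cadherin genes, 8 stood at the smallest adjusted p on the array, 0.0842, which 560 features shared. These were Cdh15, Pcdhb15, Pcdhb16 and Pcdhb20, lower in the cKO, and Cdh6, Pcdh8, Pcdh18 and Pcdh19, higher in the cKO. When the unnamed probes were left out of the fit, 457 genes (2.3% of 19862) had an adjusted p under 0.05, and the same 8 cadherins were among them, with adjusted p from 0.0467 to 0.0489 (limma).

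**Figure D1:**
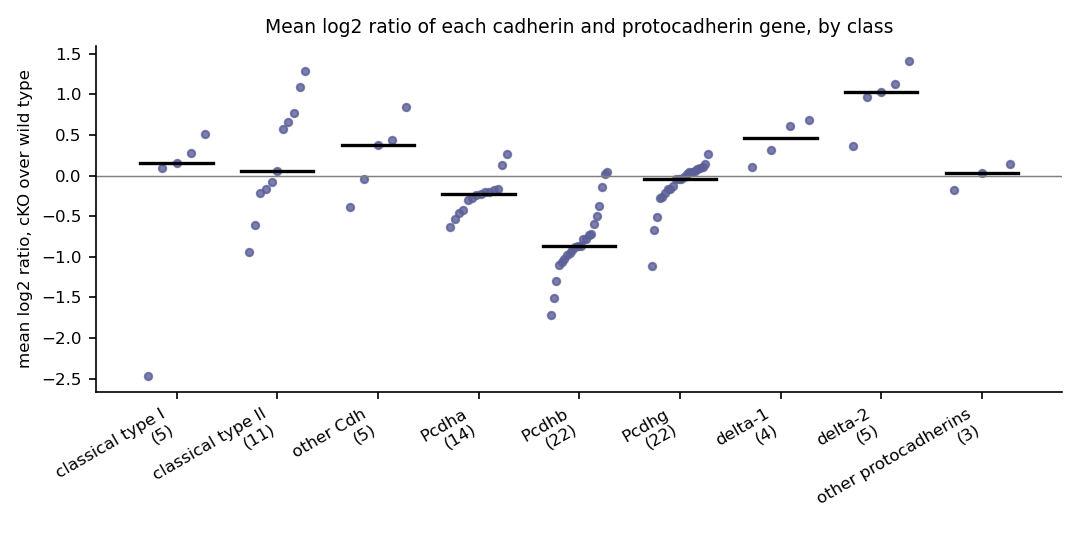
Mean log2 ratio of cKO over wild type (vertical axis) of each of the 91 genes (points, sorted within a class) by class, with the number of genes in brackets and the class median as a bar. The Pcdhb median lies at -0.87 and the delta-2 median at 1.03, while Cdh15 lies apart at -2.47.

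The promoters of the single gene furthest below 0, Cdh15, and of the delta-2 protocadherins, the class with the highest median, are shown because they are the lowest member and the highest class. The sequences are the 250 bases before the annotated start, 5′ to 3′ on the gene's own strand, from RefSeq on build GRCm38.p6, where 21 of the 91 genes were matched. The clustered Pcdha, Pcdhb and Pcdhg genes were not among these 21. Cdh7 had 3 starts and Pcdh9 2, which gave 24 promoters of cadherin genes, all unclustered. In the Cdh15 promoter the capitals mark E-boxes, the 6-letter motif CANNTG that reads the same on both strands. E-boxes are bound by basic helix-loop-helix proteins, which include the myogenic and proneural factors.
Cdh15, chr8:122848124-122848373, plus strand: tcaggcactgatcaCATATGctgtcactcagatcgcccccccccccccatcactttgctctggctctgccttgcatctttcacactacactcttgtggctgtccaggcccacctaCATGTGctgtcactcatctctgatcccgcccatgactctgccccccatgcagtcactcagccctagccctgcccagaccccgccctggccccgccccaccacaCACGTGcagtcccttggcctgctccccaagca

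The Cdh15 promoter holds 3 E-boxes. At least 3 were present in 12.2% of the 32851 promoters in the table, and at least 1 in 66.2%. Of the 24 promoters of cadherin genes, 12 held at least 1. Those of Cdh9 and Cdh10, which were higher in the cKO, held 3 and 4, and that of Cdh22, which was lower, held 0. In the delta-2 promoters the capitals mark the CCAAT box, searched as CCAAT on either strand and found on the opposite strand in each, where it reads ATTGG. No E-box overlapped a CCAAT box in the sequences printed.
Pcdh8, chr14:79771313-79771562, minus strand: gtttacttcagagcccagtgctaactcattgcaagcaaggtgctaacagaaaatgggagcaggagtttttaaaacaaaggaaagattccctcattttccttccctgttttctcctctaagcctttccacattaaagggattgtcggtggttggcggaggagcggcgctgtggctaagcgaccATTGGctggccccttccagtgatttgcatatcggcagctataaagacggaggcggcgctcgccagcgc
Pcdh10, chr3:45378148-45378397, plus strand: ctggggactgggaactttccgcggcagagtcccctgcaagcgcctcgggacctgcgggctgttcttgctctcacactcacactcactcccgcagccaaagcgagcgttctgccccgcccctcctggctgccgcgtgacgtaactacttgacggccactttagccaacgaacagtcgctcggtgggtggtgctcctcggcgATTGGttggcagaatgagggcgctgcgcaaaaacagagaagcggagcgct
Pcdh17, chr14:84443313-84443562, plus strand: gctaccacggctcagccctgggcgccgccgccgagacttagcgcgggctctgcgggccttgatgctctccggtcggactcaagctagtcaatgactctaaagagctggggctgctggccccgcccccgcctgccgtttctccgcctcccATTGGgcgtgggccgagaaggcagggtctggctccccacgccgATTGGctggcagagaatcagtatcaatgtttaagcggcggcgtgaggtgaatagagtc
Pcdh18, chr3:49757317-49757566, minus strand: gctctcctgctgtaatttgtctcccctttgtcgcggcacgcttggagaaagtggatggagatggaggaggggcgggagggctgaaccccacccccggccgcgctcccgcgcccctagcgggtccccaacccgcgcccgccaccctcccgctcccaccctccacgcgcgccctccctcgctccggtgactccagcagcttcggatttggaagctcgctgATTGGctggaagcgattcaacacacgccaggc
Pcdh19, chrX:133688994-133689243, minus strand: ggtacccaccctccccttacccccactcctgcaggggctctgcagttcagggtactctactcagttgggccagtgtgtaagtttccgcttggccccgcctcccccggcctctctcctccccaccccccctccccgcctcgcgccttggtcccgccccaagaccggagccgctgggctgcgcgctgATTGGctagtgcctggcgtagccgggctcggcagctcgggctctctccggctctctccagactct

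All 5 delta-2 promoters held a CCAAT box, Pcdh17 2 of them, against 33.8% of all promoters and 15 of the 24 promoters of cadherin genes. These 15 include the 5 delta-2 promoters. Outside the delta-2 class, genes on either side of 0 held a CCAAT box, such as Cdh20 (mean 0.66) and Cdh18 (-0.16). The promoters of Cdh6 (1.09) and Cdh22 (-0.94) held 0. The CCAAT search was chosen after these sequences had been read. Pcdh19 also held 1 E-box, and the other 4 held none. CpG dinucleotides numbered 5 in the Cdh15 promoter and 11 to 23 in the delta-2 promoters. Their median was 6 over all promoters and 10.5 over the 24 promoters of cadherin genes. The promoter of Cdh22, which was lower in the cKO, held 30. A match describes the letters only, and whether any protein binds there was not measured.

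Smarca5 itself stood at -0.74, -0.96 and -0.88 on replicates 1, 2 and 3, a mean of -0.86 ± 0.11. Which genotype is the numerator was taken from the labels, and this lower value of the targeted gene bears on it. Among markers of other cells, 8 of 9 granule neuron genes were below 0 on all arrays, with list medians of -1.68, -1.68 and -0.92 on replicates 1, 2 and 3. All 8 microglial genes (medians 0.95 to 1.04) and all 8 genes of brainstem and midbrain neurons (medians 1.86 to 2.55) were above 0 on all arrays. Medians of the 3-array means were also above 0 for the oligodendrocyte lineage (0.66), choroid plexus (0.55) and meninges (0.44). Of their genes, 5 of 8, 4 of 6 and 5 of 7 were above 0 on all arrays. Below 0 on all arrays were 2, 1 and 1, in the same order. For granule progenitors the median was -0.61, with 3 of 6 genes below 0 on all arrays and 0 above. Over all features, 21.5% were below 0 on all arrays and 22.1% above. The medians of Purkinje cell genes ranged from -0.08 to 0.03. Astrocyte and Bergmann glia genes had a median of 0.13 over the 3-array means, with 3 of 7 above 0 on all arrays and 1 below. Interneuron genes had a median of 0.03, with 1 of 5 above 0 on all arrays and 0 below. These shifts in other cell types stand beside every result below, and their part in it was not tested. In whole cerebellum, fewer cells of a type and less RNA per cell cannot be told apart.

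Of the type I classical cadherins, all 5 were measured and Cdh15 stood far from the other 4. Cdh15, or M-cadherin, is known from skeletal muscle and from cerebellar granule cells. It stood at -2.78, -2.52 and -2.10 on replicates 1, 2 and 3, a mean of -2.47 ± 0.34, which is 5.53-fold lower in the cKO (limma, adjusted p = 0.0842). All 3 values lie far below those of the other type I genes, and only 1 probe measured it. Cdh2, or N-cadherin, the main classical cadherin of neural tissue, had -0.02, 0.30 and 0.19 over 4 probes, a mean of 0.16 ± 0.16. It did not keep 1 sign over the arrays. Cdh3, or P-cadherin, averaged over its 3 probes, was above 0 on each array, with 0.60, 0.54 and 0.39. Its mean was 0.51 ± 0.11 (limma, adjusted p = 0.141), and its 3 probes averaged 0.40 to 0.61. Single probes of Cdh3 read -0.07 on replicate 3 and -0.06 on replicate 2. Cdh4, or R-cadherin, averaged 0.09 ± 0.16, and its probes split around 0 at -0.03 and 0.21. Cdh1, the epithelial E-cadherin, averaged 0.28 ± 0.44 and was below 0 on replicate 3 alone.

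Type II cadherins, whose members mark groups of neurons and their pathways, went in both directions. Of 11 measured, 5 were above 0 on all arrays (45.5%, against 22.1% of all features), 3 were below 0 on all arrays (27.3%, against 21.5%) and 3 were mixed. The class median was 0.06, against 0.00 over all features, but it was 0.33 over single probes and -0.09, 0.17 and 0.10 without replicates 1, 2 and 3, so it gives no direction. Cdh6 had 0.90, 1.12 and 1.25 on replicates 1, 2 and 3, a mean of 1.09 ± 0.18, which is 2.13-fold higher in the cKO (limma, adjusted p = 0.0842). Cdh11, known from mesenchyme and also present in brain, had 0.73, 0.90 and 0.67, a mean of 0.77 ± 0.12, and its 3 probes averaged 0.62 to 0.88. The arrays lay close together for both genes. Cdh20 was as even, with 0.65, 0.62 and 0.73 and a mean of 0.66 ± 0.06 from 2 probes at 0.62 and 0.71.

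Cdh9 had the highest mean of the type II genes and the widest spread among those above 0 on all arrays, with 0.40, 1.39 and 2.08 and a mean of 1.29 ± 0.84 (limma, adjusted p = 0.17). Cdh10 averaged 0.57 ± 0.15, and its 5 probes ranged from 0.09 to 0.94. Below 0 stood Cdh22, a cadherin first described in pituitary and brain, with -1.22, -0.73 and -0.86 and a mean of -0.94 ± 0.25, 1.91-fold lower in the cKO (limma, adjusted p = 0.0964). Cdh7 had -0.53, -0.72 and -0.58, a mean of -0.61 ± 0.10, and both its probes were below 0, at -0.86 and -0.35. Cdh18 averaged -0.16 ± 0.07, and 1 of its 2 probes carried the value, at -0.33 against 0.01. Cdh5, the cadherin of endothelial junctions, averaged 0.06 ± 0.27, with values between -0.16 and 0.36. Endothelial markers had list medians from -0.07 to 0.05 on the single arrays and a median of 0.11 over the 3-array means. Of the 7, 3 were below 0 on all arrays and 2 above (42.9% and 28.6%, against 21.5% and 22.1% of all features). Cdh8 averaged -0.09 ± 0.17 with 1 probe on each side of 0, and Cdh24 ranged from -0.89 on replicate 2 to 0.22 on replicate 3.

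The other numbered cadherins have unusual structures. Cdh13, or T-cadherin, which is held in the membrane by a lipid anchor and lacks a cytoplasmic tail, had 0.78, 0.98 and 0.78, a mean of 0.84 ± 0.11, 1.8-fold higher in the cKO (limma, adjusted p = 0.091). Its 3 probes averaged 0.52, 0.99 and 1.02. Cdh23, a component of the tip links of inner ear hair cells, was above 0 on each array but uneven, with 0.25, 0.94 and 0.12. Cdh26 averaged 0.37 ± 0.33. Cdh16, known from kidney, averaged -0.39 ± 0.35, and both its probes are listed at exactly 0 on replicate 2. Cdh17, known from liver and intestine, ranged from -1.39 on replicate 1 to 1.08 on replicate 2, so its arrays disagree in sign.

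**Figure D2:**
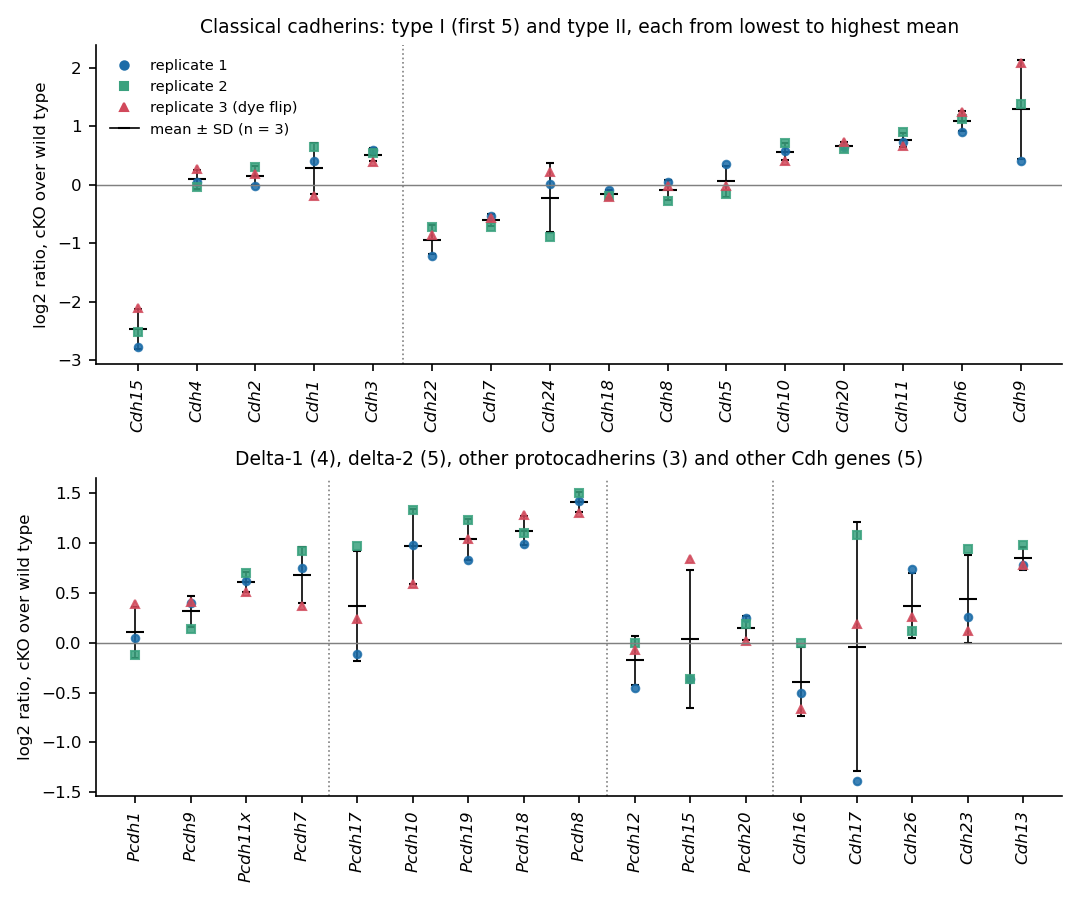
Log2 ratio of cKO over wild type (vertical axis) on each array for the classical cadherins (upper panel) and the delta, other protocadherin and other Cdh genes (lower panel), with the mean and SD over 3 arrays in black. Cdh15 lies between -2.78 and -2.10 on the arrays, and Pcdh8, Pcdh18 and Pcdh19 lie between 0.83 and 1.5.

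Delta-protocadherins were above 0 as a class: 7 of 9 on all 3 arrays (77.8%, against 22.1% of all features) and 0 of 9 below. A higher value with an unadjusted p under 0.05 (limma) was held by 6 of the 9, 66.7% against 10.9% of all features. The 5 delta-2 genes had medians of 0.98, 1.24 and 1.04 on replicates 1, 2 and 3, and the 4 delta-1 genes 0.51, 0.42 and 0.40. Pcdh8, also called arcadlin and induced by neuronal activity, had 1.42, 1.5 and 1.30, a mean of 1.41 ± 0.10, 2.65-fold higher in the cKO (limma, adjusted p = 0.0842). Both of its probes were above 0 on each array, averaging 1.03 and 1.79. This was the highest mean of all 91 genes. Pcdh18 had 0.99, 1.10 and 1.28, a mean of 1.12 ± 0.15 from 1 probe. Pcdh19, an X-linked gene whose human counterpart is mutated in an epilepsy, had 0.83, 1.24 and 1.04, a mean of 1.03 ± 0.20. Its 2 probes differed in size, at 0.53 and 1.54.

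Pcdh10, or OL-protocadherin, had 0.98, 1.33 and 0.58, a mean of 0.97 ± 0.37 (limma, adjusted p = 0.113). Its 4 probes averaged 0.87 to 1.09, so they disagreed less than the arrays did. Pcdh17 was the exception among delta-2 genes, with -0.11, 0.97 and 0.24 and a mean of 0.37 ± 0.55 from 1 probe. Of the delta-1 genes, Pcdh7 had 0.75, 0.92 and 0.37 (mean 0.68 ± 0.28), and Pcdh11x, on the X chromosome, had 0.62, 0.70 and 0.51 (mean 0.61 ± 0.10). The probes of Pcdh11x did not agree in size, with means of 0.02, 0.52 and 1.29, and those of Pcdh7 averaged 0.16, 0.88 and 1.01. Pcdh9 averaged 0.31 ± 0.15 with 3 probes between 0.23 and 0.38. Pcdh1 averaged 0.10 ± 0.26 and its 2 probes stood on opposite sides of 0.

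The 3 remaining unclustered protocadherins lay near 0. Pcdh20 averaged 0.15 ± 0.12 and Pcdh12, an endothelial protocadherin, -0.18 ± 0.25. Pcdh15, the partner of Cdh23 in hair cell tip links, had -0.36 on both replicates 1 and 2, and 0.83 on the dye-flipped array. Its sign turned with the dye, so it gives no direction between the genotypes.

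All 22 Pcdhb genes of the gene table were measured, and 18 were below 0 on all 3 arrays (81.8%, against 21.5% of all features), with 0 above 0 on all. The same number, 18 of 22, had a lower value with an unadjusted p under 0.05 (limma), against 9.97% of all features. The medians over the cluster were -0.87, -0.65 and -0.85 on replicates 1, 2 and 3. Pcdhb15 was lowest, with -1.47, -1.65 and -2.02, a mean of -1.71 ± 0.28, 3.28-fold lower in the cKO (limma, adjusted p = 0.0842). Next to it, Pcdhb16 had -1.60, -1.08 and -1.85, a mean of -1.51 ± 0.39. Pcdhb20 had -1.52, -1.16 and -1.21, a mean of -1.30 ± 0.20. For these 3 genes each array lay below -1.

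Next lowest were Pcdhb11 at -1.10 ± 0.34, Pcdhb17 at -1.07 ± 0.38 and Pcdhb8 at -1.03 ± 0.28. They were followed by Pcdhb19 at -0.97 ± 0.36, Pcdhb18 at -0.96 ± 0.32 and Pcdhb6 at -0.92 ± 0.48. Pcdhb3, Pcdhb4, Pcdhb7, Pcdhb9, Pcdhb13, Pcdhb14, Pcdhb21 and Pcdhb22 averaged between -0.60 and -0.88, and Pcdhb2 -0.49 ± 0.12. Replicate 2 was nearest to 0 for several of them, among them Pcdhb21 with -0.08 there against -0.95 and -1.31 on replicates 1 and 3. The 4 genes without 1 sign over the arrays were Pcdhb1 at 0.02 ± 0.35, Pcdhb12 at 0.05 ± 0.22, Pcdhb5 at -0.15 ± 0.15 and Pcdhb10 at -0.37 ± 0.48.

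Along the chromosome, the 3 lowest genes lay in the part of the cluster nearer to Pcdhg, without a steady gradient. Spearman's rho between a gene's place and its mean was -0.48 over the 22 genes, which share the arrays and, in part, their sequence. The unbroken run from Pcdhb15 to Pcdhb22 had means from -1.71 to -0.78, while at the other end Pcdhb1 stood at 0.02 and Pcdhb2, Pcdhb3 and Pcdhb4 at -0.49, -0.78 and -0.72. Between them, Pcdhb6 to Pcdhb9 averaged -1.03 to -0.87, and Pcdhb12 0.05. Slc25a2 and Taf7, which lie between the Pcdhb and Pcdhg clusters, had 0.40 ± 0.52 and -0.21 ± 0.64, each with both signs over the arrays. Looked up with them, Zmat2 was below 0 on all arrays, with -0.62, -0.07 and -0.56 and a mean of -0.42 ± 0.30. Diaph1 averaged -0.04 ± 0.22 and had both signs. Pcdhb genes resemble one another in sequence, most had 1 probe, and whether a probe also bound a neighbour's transcript was not tested. Where a Pcdhb gene had 2 probes (4 genes), their means had 1 sign, although Pcdhb2 had -0.06 and -0.93. The first of these probes read 0.55, 0.12 and -0.84 on replicates 1, 2 and 3, and the other -1.37, -1.01 and -0.41. The SD of 0.12 given for Pcdhb2 is that of their average and does not show this spread.

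**Figure D3:**
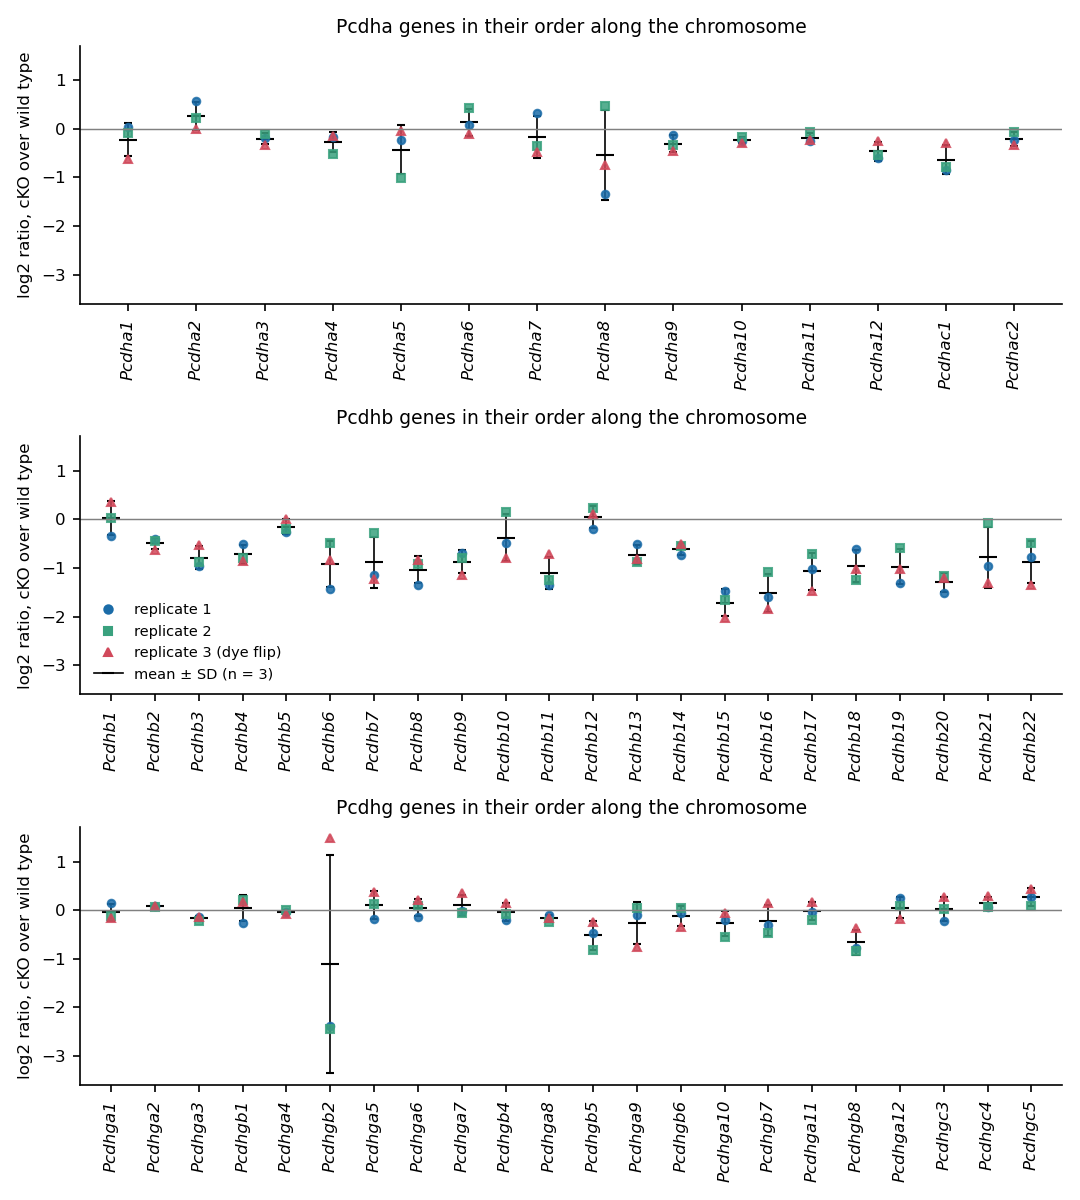
Log2 ratio of cKO over wild type (vertical axis) on each array for the Pcdha (14), Pcdhb (22) and Pcdhg (22) genes in chromosomal order, with the mean and SD over 3 arrays in black. The Pcdhb genes centre on -0.87 and the Pcdhg genes on -0.04, and Pcdhgb2 has its dye-flipped array on the other side of 0.

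Pcdha genes were lower by less. Of 14, 9 were below 0 on all arrays (64.3%, against 21.5% of all features), 0 were above 0 on all, and 2 had a lower value with an unadjusted p under 0.05 (limma), 14.3% against 9.97%. The cluster's medians were -0.20, -0.14 and -0.29 on replicates 1, 2 and 3. Pcdhac1, a C-type gene at the end of the cluster, had -0.84, -0.78 and -0.29, a mean of -0.64 ± 0.30 (limma, adjusted p = 0.157), from probes at -1.01 and -0.26. Pcdha12 had -0.61, -0.54 and -0.25, a mean of -0.46 ± 0.19. Pcdha9 had -0.12, -0.33 and -0.46, a mean of -0.30 ± 0.17. Pcdha10 was small but even, at -0.24, -0.17 and -0.29, with 3 probes between -0.26 and -0.20. The highest was Pcdha2 at 0.26 ± 0.29, whose probes disagreed at 0.76 and -0.24. Pcdha8 had the widest spread, from -1.35 on replicate 1 to 0.48 on replicate 2.

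Pcdhg genes stood close to 0. Of 22, 5 were below 0 on all arrays (22.7%, against 21.5% of all features), 3 were above 0 on all (13.6%, against 22.1%), and the medians were -0.12, -0.03 and 0.11. A lower value with an unadjusted p under 0.05 was held by Pcdhgb5 and Pcdhgb8, 9.09% against 9.97% of all features. Pcdhgb8, which the gene table lists as a transcribed pseudogene, had -0.79, -0.84 and -0.37, a mean of -0.66 ± 0.26, and Pcdhgb5 averaged -0.51 ± 0.30. In both, 1 probe carried the value, at -1.32 for Pcdhgb8 and -1.03 for Pcdhgb5, and the other stood at -0.01 and 0.00. Pcdhgb2 had -2.38 and -2.44 on replicates 1 and 2 and 1.48 on the dye-flipped array. Of its 2 probes, 1 followed the dye with -4.65, -5.03 and 2.95, and the other read -0.11, 0.14 and 0.00, so its mean of -1.12 ± 2.24 gives no direction. The cluster's median was -0.04 with and without Pcdhgb2.

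The C-type genes Pcdhgc3, Pcdhgc4 and Pcdhgc5, at the far end of the cluster, averaged 0.02 ± 0.25, 0.14 ± 0.13 and 0.27 ± 0.19. Pcdhgc5 was the highest of the Pcdhg genes and was above 0 on all arrays, with 0.28, 0.07 and 0.45. Pcdhga10 averaged -0.27 ± 0.26, with probes at 0.00 and -0.55. The other Pcdhga and Pcdhgb genes had means between -0.27 and 0.11. Which exon a Pcdha or Pcdhg probe matches is not given here, and a probe in a constant exon would read the whole cluster.

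Set side by side on the same array, the Pcdhb median was 0.75, 0.63 and 0.96 below the Pcdhg median on replicates 1, 2 and 3, and 0.66, 0.51 and 0.56 below the Pcdha median. The delta-2 median exceeded the Pcdhb median by 1.84, 1.89 and 1.89. The order of these 4 classes was thus the same on the dye-flipped array. With 3 arrays, differences between classes are given as values without a test.

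**Figure D4:**
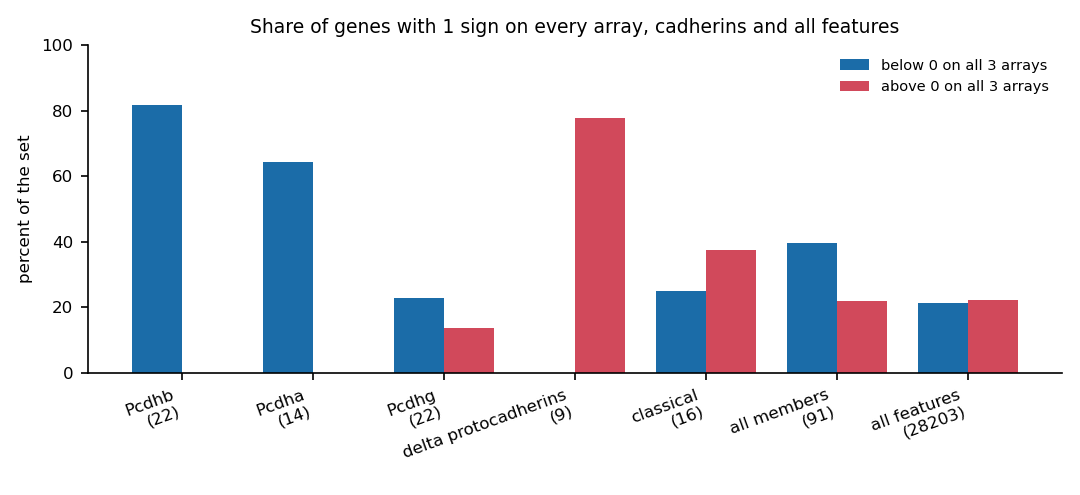
Percent of genes (vertical axis) below 0 (blue) and above 0 (red) on all 3 arrays, by class and for all 28203 features, with the number of genes in brackets. Pcdhb has 81.8% below and 0% above, delta-protocadherins 77.8% above and 0% below, and all features 21.5% below and 22.1% above.

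Partners of classical cadherins at the cell junction went both ways. Of 15 measured partner genes, 4 had a lower value with an unadjusted p under 0.05 (limma), 26.7% against 9.97% of all features, and 2 a higher one, 13.3% against 10.9%. The list median was 0.00. Adam10, the protease that sheds cadherin ectodomains, averaged -0.69 ± 0.24, Nectin3 -0.49 ± 0.15, and Plekha7, an adaptor of adherens junctions, 0.90 ± 0.58. The catenin genes Ctnnb1, Ctnna1 and Ctnna2 averaged 0.09 ± 0.14, -0.02 ± 0.30 and 0.00 ± 0.17 and had both signs over the arrays, as had Ctnna3. Other catenin genes kept 1 sign. Ctnnd1 at 0.38 ± 0.08 and Ctnnd2 at 0.30 ± 0.16 were above 0 on all arrays, and Jup at -0.57 ± 0.42 below.

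Among 21 further members of the cadherin superfamily, 4 had a lower and 4 a higher value with an unadjusted p under 0.05 (limma), 19.0% in each direction against 9.97% lower and 10.9% higher of all features. Cdhr1, formerly Pcdh21, averaged 1.36 ± 0.28, Fat1, a giant cadherin, -0.82 ± 0.11, and Celsr1, of planar cell polarity, 1.13 ± 0.38. Genes known to regulate the clustered protocadherins were mostly lower: 10 of 14 were below 0 on all arrays (71.4%, against 21.5% of all features). Only Rest, at 0.35 ± 0.32, was above 0 on all arrays (7.14%, against 22.1% of all features), and 3 were mixed. A lower value with an unadjusted p under 0.05 (limma) was held by 6 of the 14, 42.9% against 9.97% of all features. The list's medians were -0.33, -0.30 and -0.30. Stag1, a cohesin subunit, averaged -0.73 ± 0.06, Smchd1, which takes part in silencing these clusters, -0.58 ± 0.23, and Smc3, also of cohesin, -0.43 ± 0.02. Ctcf, whose protein binds promoters and enhancers of the clusters, had -0.37, -0.39 and -0.39. Of 13 genes that signal downstream of protocadherins, 7 were above 0 on all arrays (53.8%, against 22.1% of all features). A higher value with an unadjusted p under 0.05 (limma) was held by 3 (23.1%, against 10.9%), namely Ptk2b at 0.55 ± 0.23, Fyn at 0.45 ± 0.24 and Ptk2 at 0.35 ± 0.08, which encode tyrosine kinases.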

How the data were processed

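Cerebellar RNA (postnatal day 10) was hybridised to 3 two-colour arrays with the cKO in channel 2, per the labels. The deposited table holds 1 log2 ratio per probe and array (38880 probes), with a median of 0 on each array. That its base is 2 is an assumption. The sources used here give no scanner, background correction or normalization method, and no intensities were used, so dim probes were not filtered and signal over background is unknown. The number of arrays limits the precision.

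Values were read as channel 2 over channel 1. A set of 47 spots with values over 5 in size turned sign with the dye and was left out. Across probes, Pearson's r was 0.443 (replicates 1 and 2), 0.266 (1 and 3) and 0.223 (2 and 3). Probes were named from the platform annotation (30457 with 1 symbol, 0 with several, 8423 with none) and updated through RefSeq GRCm38.p6 (19043 by current symbol, 11220 by a synonym, 194 kept as on the array). Probes of a gene were averaged per array, leaving 19862 named genes and 8341 unnamed probes. Ratios were tested against 0 with limma 3.58.1 (intercept, eBayes, 2 residual and 2.09 prior degrees of freedom) in R 4.3.3, with Benjamini-Hochberg adjustment over all features, and tested on simulated data. Tables and figures used Python 3.11.15, pandas 2.3.3 and matplotlib 3.10.9.

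Members, classes and lists were chosen with earlier results of these data known. The text names 17 fixed genes, the 4 of smallest p and both ends of each class, and the 3 of smallest p of each list. Others (Cdh7, Cdh10, Cdh17, Cdh18, Cdh24, Pcdha8, Pcdhgc4, the remaining Pcdhb genes, Ctcf, Rest and the catenins) were named after their values were seen. Slc25a2, Taf7, Zmat2 and Diaph1 were also named outside that rule. The 13 other settings covered probe handling, symbols, centring, scaling, the dye, moderation, marker spots, unnamed probes and each replicate.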

Additional observations from a re-analysis of the deposited data

How the results depend on the processing

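The medians of the classes were computed under 11 of 13 other settings (moderation and unnamed probes do not enter them) and, for Pcdhg, without Pcdhgb2. They stayed within the spread of the arrays in 91 of 100 comparisons. Over the 13 settings, 44 members kept direction and side of the threshold in 539 comparisons, reversed in 23 and passed the threshold in 8. Features with an adjusted p under 0.05 (limma) numbered 0, but 457 with unnamed probes left out, 2 without moderation and 4 with the sign of the dye-flipped array turned. Turning that sign against the labels also left 7.69% of members lower and 4.40% higher on all arrays, against 10.4% and 11% of all features, and gave medians of -0.0125 (Pcdha), -0.20 (Pcdhb), 0.16 (delta-1) and 0.34 (delta-2). It reversed Cdh16 (0.053), Cdh4 (-0.09), Cdh9 (-0.10), Pcdh1 (-0.15), Pcdh15 (-0.52), Pcdha9 (0.0033), Pcdhb12 (-0.03), Pcdhgc3 (-0.16) and Pcdhgc5 (-0.03). With each probe on its own the delta-1 median was 0.37, and 1 probe had the other sign for Cdh4 (-0.027), Cdh8 (0.11), Pcdh1 (-0.16), Pcdh15 (-0.16), Pcdha2 (-0.24), Pcdhgb2 (0.01) and Pcdhgb5 (0.0033). With the array's symbols the medians were 0.31 (delta-1) and 1.27 (delta-2), over fewer genes, and Cdh4 was -0.027. Leaving out 1 replicate gave medians from -0.97 to -0.72 (Pcdhb) and from -0.23 to 0.13 (other protocadherins), the lowest without replicates 2 and 3. Values ranged from -0.09 to 0.17 (Cdh5), -0.15 to 0.01 (Cdh8), -0.04 to 0.18 (Pcdhb12), -0.0375 to 0.22 (Pcdh1), -0.36 to 0.24 (Pcdh15) and -0.10 to 0.14 (Pcdhgc3). The type II median lay between -0.09 and 0.33 over these settings. The Pcdhg median without Pcdhgb2 was computed after the data were seen. The causes were not tested. No paired analysis was possible because each array's ratio already pairs 1 cKO with 1 wild-type sample.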
